A study of Mus musculus with 19 samples.

Results

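The genes described here encode the translation initiation factors and the kinases that phosphorylate eIF2. They were chosen by symbol: every gene of the counts table whose GRCm38 symbol begins with *Eif* and a digit and holds no hyphen, without *Eif4a3*, and with 10 or more counts in 1 or more embryos. Of 55 symbols that fit the pattern, 53 genes passed the count minimum, among 17137 genes that passed it in the whole table of 41388. The symbols just outside were *Eif2c5*, with at most 2 counts in an embryo, and *Eif4ebp3*, with at most 3, and those just inside were *Eif2ak2*, with at most 27, and *Eif3j2*, with at most 30. RNA was sequenced from single whole blastocysts at E3.25, 8 of them *Upf2*-null (*Upf2* -/-) and 11 of them control littermates (*Upf2* +/+). All embryos were on a C57BL/6 background and came from crosses of global heterozygotes, which had been made with an *E2a*-driven Cre that deletes *Upf2* exons 2 and 3 and leaves a truncated protein without NMD activity. Dams were superovulated females of 4 to 8 weeks, and zygotes were cultured in M16 medium until 90 to 94 h after hCG. Genotypes were read by PCR from the cDNA of each embryo. UPF2 is a core factor of nonsense-mediated decay (NMD), which degrades mRNAs that carry a stop codon in an aberrant context, and the comparison asks which of the translation genes differ in level when this pathway is lost.

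Initiation begins when the heterotrimer eIF2, loaded with GTP, brings the initiator tRNA to the small ribosomal subunit together with eIF1, eIF1A, eIF3 and eIF5. The eIF4 group binds the mRNA cap and unwinds the leader, and 4E-binding proteins (4E-BPs) can sequester the cap-binding eIF4E. After start codon recognition eIF2 leaves with GDP, and eIF2B recharges it. Under stress, the kinases HRI (*Eif2ak1*), PKR (*Eif2ak2*), PERK (*Eif2ak3*) and GCN2 (*Eif2ak4*) phosphorylate the alpha subunit of eIF2, which blocks eIF2B, lowers general translation and favours translation of the *Atf4* mRNA, whose product activates *Ddit3* and other stress genes.

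The start regions of 3 genes are shown: *Eif2s3x* and *Eif2s3y*, because they encode the same eIF2 subunit and their levels are described together by embryo, and *Eif2ak2*, because this kinase is known as an interferon-induced gene. They are RefSeq windows on GRCm38.p6, from 120 bases before the start to 30 bases after it. Capitals mark 3 motifs searched on both strands, with no overlap between them in these windows: the CARE element bound by ATF4 (TGATGNAA), the interferon-stimulated response element (GAAANNGAAA) and the YY1 core (AAGATGGC).
*Eif2s3x*, chrX:94212622-94212771, minus strand: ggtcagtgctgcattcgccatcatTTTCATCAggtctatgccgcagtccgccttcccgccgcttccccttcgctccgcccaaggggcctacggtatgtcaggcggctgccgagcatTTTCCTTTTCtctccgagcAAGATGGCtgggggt
*Eif2s3y*, chrY:1010475-1010624, plus strand: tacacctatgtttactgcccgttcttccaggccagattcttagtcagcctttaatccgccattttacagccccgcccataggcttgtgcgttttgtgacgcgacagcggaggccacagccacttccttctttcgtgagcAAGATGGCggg
*Eif2ak2*, chr17:78882543-78882692, minus strand: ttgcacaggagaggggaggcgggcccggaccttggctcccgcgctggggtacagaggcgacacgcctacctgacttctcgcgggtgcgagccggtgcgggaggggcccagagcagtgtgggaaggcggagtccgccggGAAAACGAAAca
Of the 53 genes, 42 had a RefSeq window of 250 bases before to 50 bases after the start. Among these 42 the CARE letters were in 1 gene (*Eif2s3x*), against 2.91% of the 11964 tested genes with a window. The interferon element was in 4 (*Eif2ak2*, *Eif2s1*, *Eif2s3x* and *Eif3a*), against 3.47% of all, and the YY1 core in 5 (*Eif2s3x*, *Eif2s3y*, *Eif3f*, *Eif4a1* and *Eif4e*), against 4.81% of all. These matches describe letters only. *Eif1a*, *Eif2b3*, *Eif3e*, *Eif3h*, *Eif3i*, *Eif3j2*, *Eif4e1b*, *Eif4e3*, *Eif4ebp1*, *Eif4g2* and *Eif6* had no entry.

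Library totals ran from 4068350 to 5993745 counts in *Upf2*-null embryos and from 4056072 to 5854659 in controls, after PCR duplicates had been removed. *Upf2* itself averaged 90.9 CPM in *Upf2*-null blastocysts (SD 21.3, n = 8) and 57.8 CPM in controls (SD 16.5, n = 11), but its whole-gene count includes exons outside the deletion and does not test the genotype. All trophectoderm (6 of 6), epiblast (6 of 6) and primitive endoderm (5 of 5) markers had counts, and 2 of 8 cumulus and granulosa cell markers, *Cyp19a1* and *Fshr*, had none in any embryo, while all 8 summed to 0 to 12.2 CPM in *Upf2*-null blastocysts and 0 to 3.87 CPM in controls. The summed epiblast markers were at 252 to 343 CPM in *Upf2*-null blastocysts and 342 to 570 CPM in controls, while the trophectoderm sum (918 to 1440 against 747 to 1610 CPM) and the primitive endoderm sum (131 to 228 against 95.1 to 229 CPM) overlapped widely. In whole embryos fewer cells of a type and less RNA per cell cannot be told apart, and the part of the epiblast share in the values below was not tested.

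Most initiation factors were abundant in the blastocyst. Together the 53 genes took 1.22% to 1.34% of the counts of *Upf2*-null embryos and 1.23% to 1.46% in controls. *Eif5*, which drives GTP hydrolysis by eIF2, had the highest count of any gene in the whole table (4884 in 1 embryo). The counts were made after PCR duplicates had been removed. The effect of that step on abundant genes was not tested, so the order of counts need not be that of mRNA levels. Levels between genes were compared as CPM (normalized by TMM for library size) per kb of the principal GENCODE transcript. On this scale *Eif5a* was highest, at 305 in *Upf2*-null embryos and 329 in controls, followed by *Eif3k* at 298 and 297 and *Eif3g* at 258 and 270. At the other end *Eif2ak2* was at 0.337 and 0.0519, *Eif4e1b*, an eIF4E paralog known from oocytes, at 0.647 and 0.127, and *Eif4e3* at 1.36 and 0.796 CPM per kb. By their median the kinases were the lowest role group. In the order HRI, PERK, GCN2 and PKR they had 27.7, 6.02, 2.86 and 0.337 CPM per kb in *Upf2*-null embryos and 24.8, 5.06, 1.40 and 0.0519 in controls. The *Upf2*-null and control ranges overlapped for each of the 53 genes. Pairs of close homologs, such as *Eif2s3x* and *Eif2s3y*, *Eif3j1* and *Eif3j2* or *Eif1* and *Eif1b*, may exchange reads, since the treatment of reads that fit several places is not given in the sources used here.

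**Figure D1:**
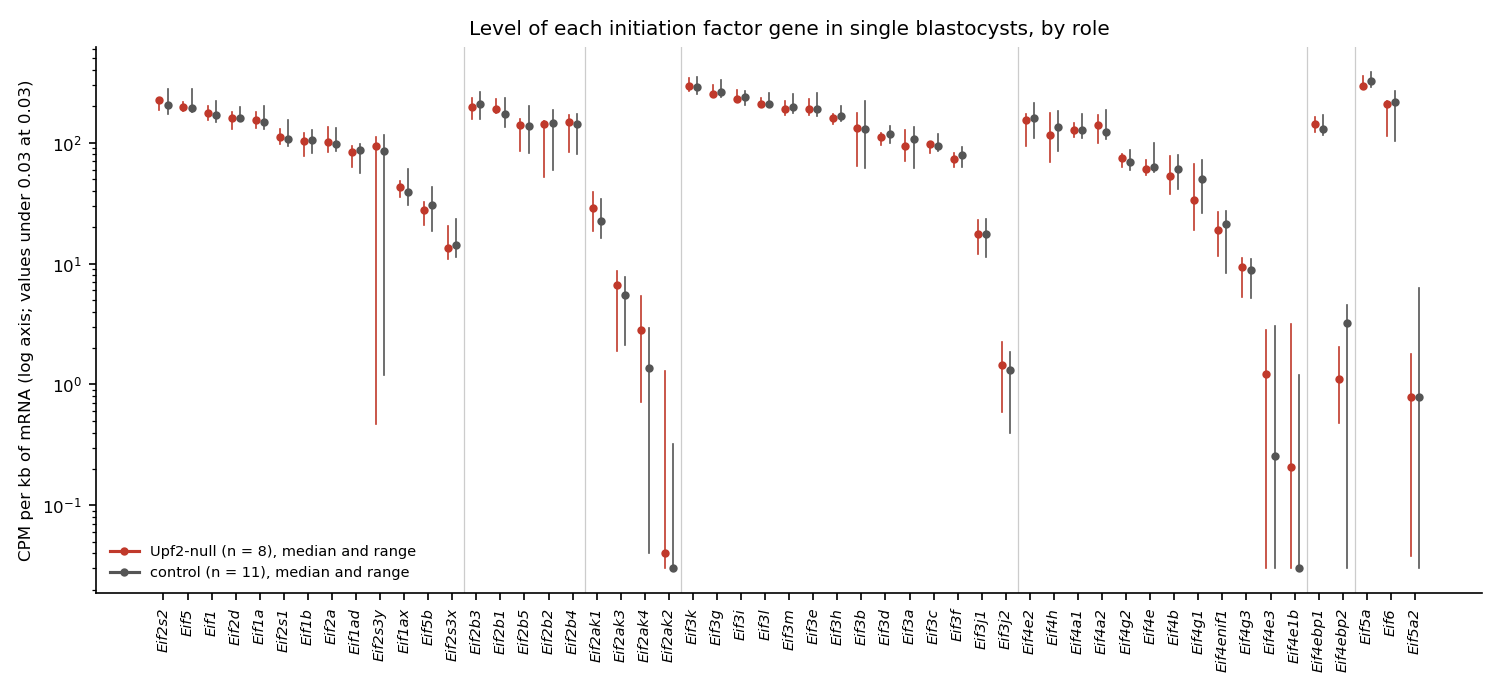
Median and range of CPM per kb of mRNA (log axis) for each of the 53 genes in *Upf2*-null (red, n = 8) and control (grey, n = 11) blastocysts, grouped by role and ordered by the control mean. The eIF2 kinases and a few paralogs lie far below the core factors, and the red and grey ranges overlap for every gene.

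None of the 53 genes passed the threshold in either direction (edgeR quasi-likelihood test over all genes, Benjamini-Hochberg adjusted p under 0.1). Over all genes 0.175% were called higher in *Upf2*-null embryos and 0.0175% lower, so a count of 0 is near this background and is no result about these genes. At an unadjusted edgeR p under 0.05 the count was also 0 of 53, against 12.5% of all genes, a share not matched for level. Among the 3668 genes with a mean of at least 100 CPM, 167 were higher and 186 lower at this p. Of the 53 genes, 41 were at that level. DESeq2 called 0 of 53 (1.03% of all genes), and limma voom with quality weights called 0 of 53 (0.665% of all genes). The lowest p was 0.0552, for *Eif4ebp2* (edgeR, adjusted p = 0.418). Of the 53 log2 fold changes, 34 lay below 0 and 19 above 0, with a median of -0.06, and over all genes the median was -0.02, with 8965 below 0 and 8172 above 0.

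In these counts, taken after removal of PCR duplicates, the intervals bound the size of a change for most of these genes. Whether that removal narrowed the fold changes or the spread of abundant genes was not tested. The 95% interval of the fold change lay within 1.5-fold in both directions for 41 of the 53 genes (77.4%) and within 2-fold for 45 (84.9%), against 22.3% and 39.9% of all genes tested. Among genes with a mean of at least 100 CPM, 37 of 41 initiation factor genes (90.2%) had an interval within 1.5-fold, against 77.7% of all 3668 genes at that level. Of the 12 genes under 100 CPM, 4 had an interval within 1.5-fold. That of *Eif2ak3* lay within 2-fold, and those of the other 7 (*Eif2ak2*, *Eif2ak4*, *Eif3j2*, *Eif4e1b*, *Eif4e3*, *Eif4ebp2* and *Eif5a2*) reached past 2-fold, so that a change of this size cannot be told from none at this depth and spread.

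**Figure D2:**
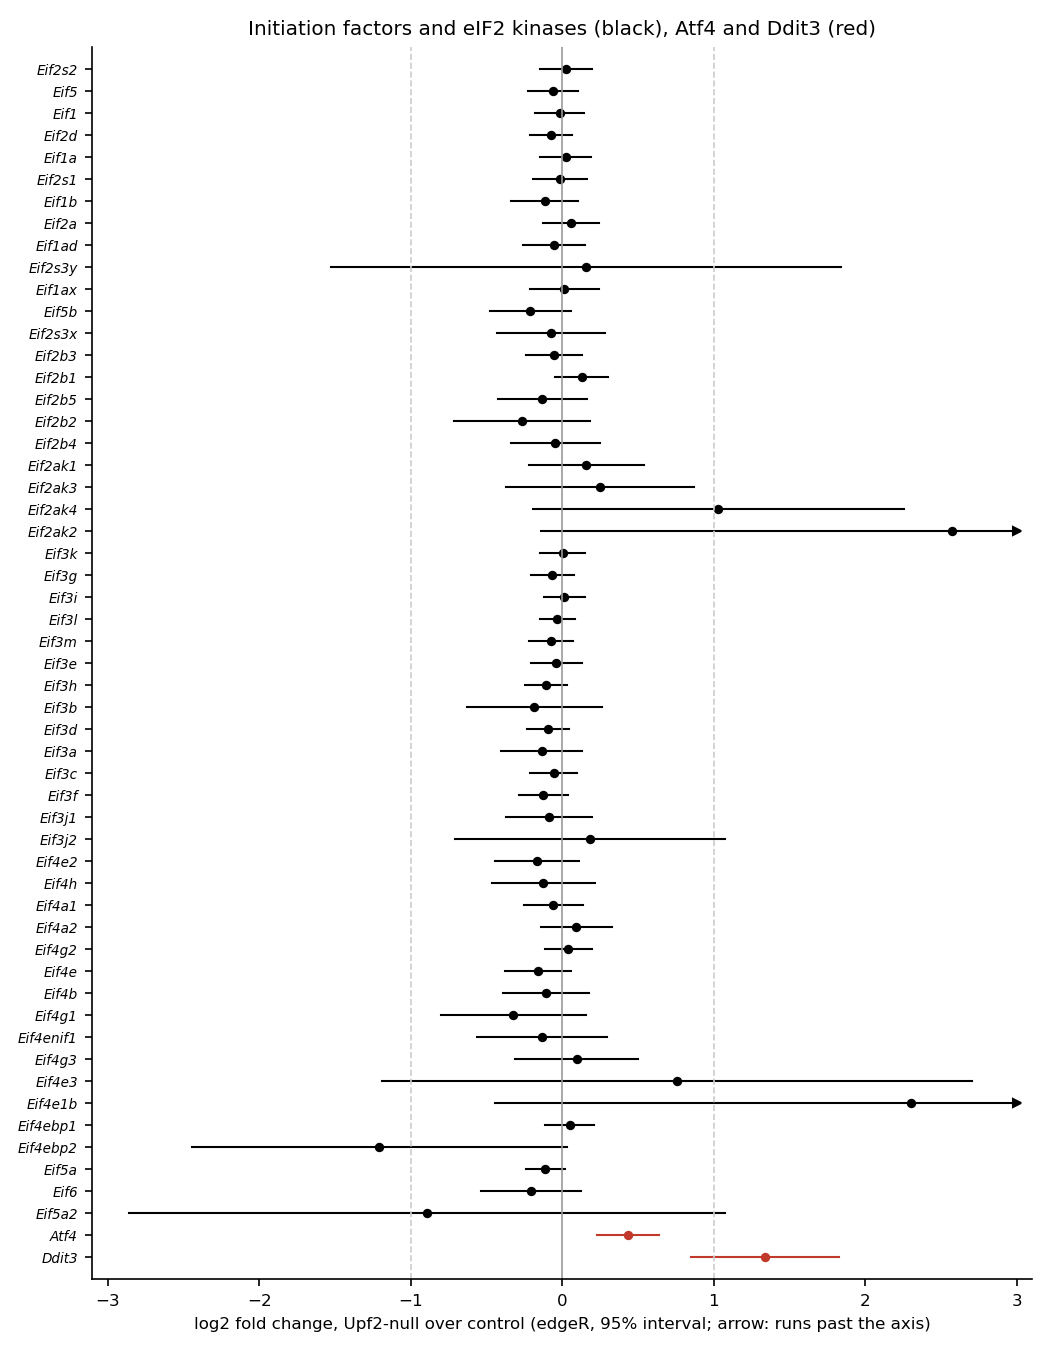
edgeR log2 fold change (*Upf2*-null over control) with its 95% interval for the 53 genes (black), and for *Atf4* and *Ddit3* (red), with dashed lines at a 2-fold change. Intervals of all 53 black genes include 0, and 41 of them stay within 1.5-fold, while those of *Atf4* and *Ddit3* lie above 0.

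The 4 eIF2 kinases all had a fold change above 0, and none passed the test. *Eif2ak4* (GCN2, the sensor of uncharged tRNA; chr2:118388618-118475234) ran from 3.76 to 28.1 CPM in *Upf2*-null embryos (median 14.7) and from 0.211 to 15.3 CPM in controls (median 7.07). *Upf2*-null embryos 7 and 8 were highest, at 26.5 and 28.1 CPM, above every control, and the other *Upf2*-null embryos lay within or just above the control range. Its log2 fold change was 1.03 (SE 0.59, 95% interval -0.20 to 2.26, edgeR adjusted p = 0.536), and 6 of 8 *Upf2*-null embryos were above the control median.

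*Eif2ak2* (PKR, the sensor of double-stranded RNA; chr17:78852564-78882573), whose start region is shown above, was close to the detection limit. It had a count in 4 of 8 *Upf2*-null embryos, 58 counts in all, and in 3 of 11 controls, 12 counts in all. Values ran from 0 to 5.52 CPM in *Upf2*-null embryos (median 0.109) and from 0 to 1.38 CPM in controls (median 0). *Upf2*-null embryos 3 and 6, at 4.71 and 5.52 CPM, held most of the signal, and 4 *Upf2*-null embryos had none. The fitted log2 fold change was 2.57 (SE 1.304, 95% interval -0.14 to 5.29, edgeR adjusted p = 0.444), and with so many embryos at 0 its size depends on the fit: it was 1.86 without *Upf2*-null embryo 6, 3.49 without control embryo 9 and 1.37 by voom. Over all alternatives it ran from 0.602 to 3.49.

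*Eif2ak3* (PERK, the kinase of the endoplasmic reticulum; chr6:70844515-70905245) ran from 8.50 to 39.2 CPM in *Upf2*-null embryos (median 29.99) and from 9.51 to 35.2 CPM in controls (median 24.8). *Upf2*-null embryo 2 and control embryo 5 were lowest, and the groups overlapped almost fully. The log2 fold change was 0.25 (SE 0.30, edgeR adjusted p = 0.864).

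*Eif2ak1* (HRI, known as the heme-regulated kinase; chr5:143817788-143904251), the most abundant of the 4, ran from 80.1 to 170.2 CPM in *Upf2*-null embryos (median 125) and from 70.5 to 148 CPM in controls (median 96.8). Both genotypes spread over the same range, with only *Upf2*-null embryo 2 above every control. Between genotypes the log2 fold change was 0.16 (SE 0.18, 95% interval -0.22 to 0.54, edgeR adjusted p = 0.857).

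**Figure D3:**
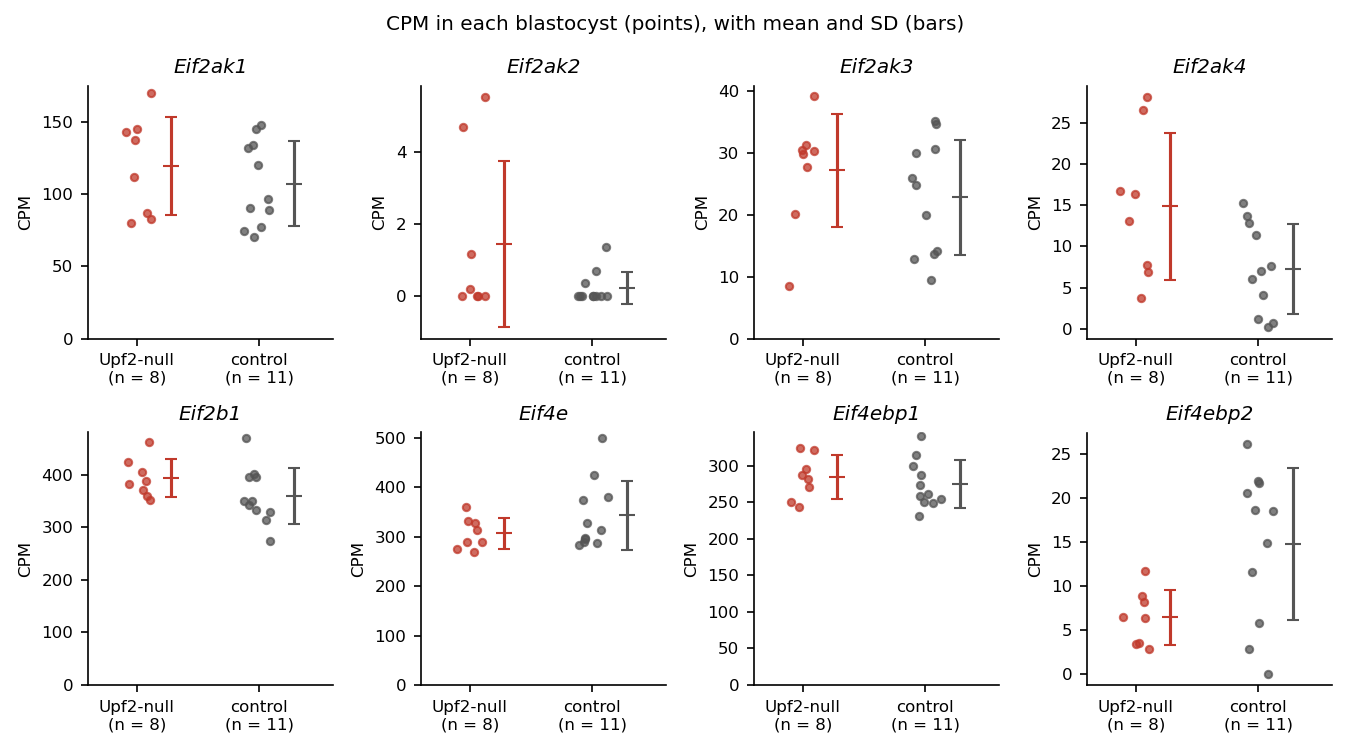
CPM in each blastocyst for the 4 eIF2 kinases, *Eif2b1*, *Eif4e*, *Eif4ebp1* and *Eif4ebp2*, with *Upf2*-null embryos in red (n = 8) and controls in grey (n = 11), and bars for mean and SD. *Eif4ebp2* spans 2.76 to 11.7 CPM in *Upf2*-null blastocysts and 0 to 26.2 CPM in controls, and every panel shows overlapping groups.

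The substrate of these kinases, eIF2, was at like levels in both genotypes. *Eif2s1*, the alpha subunit that carries the phosphorylated serine (chr12:78861819-78887010), ran from 332 to 442 CPM in *Upf2*-null embryos (median 379.8) and from 317 to 521 CPM in controls (median 367). Control embryo 2 was highest, and the *Upf2*-null range lay inside that of the controls. This corresponded to a log2 fold change of -0.02 (SE 0.08), with a 95% interval of 0.876-fold to 1.12-fold (edgeR adjusted p = 0.983). *Eif2s2*, the beta subunit (chr2:154871410-154892935), ran from 470.0 to 594 CPM in *Upf2*-null embryos (median 574) and from 441 to 709.7 CPM in controls (median 522). Control embryo 2 was again highest, and the groups overlapped. As a log2 fold change, the difference was 0.02 (SE 0.08), with a 95% interval of 0.905-fold to 1.14-fold (edgeR adjusted p = 0.969). *Eif2a*, a monomeric factor that can deliver initiator tRNA without eIF2 (chr3:58525821-58557501), ran from 194 to 309.8 CPM in *Upf2*-null embryos (median 234) and from 195 to 304 CPM in controls (median 226), and the ranges were almost the same. edgeR fitted a log2 fold change of 0.06 (SE 0.09, edgeR adjusted p = 0.906).

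The gamma subunit, which binds GTP and the tRNA, is encoded in mice by *Eif2s3x* on chromosome X and *Eif2s3y* on chromosome Y, and *Eif2s3y* had the widest spread of the 53 genes (within-genotype SD 2.89 on log2(CPM + 0.5)). It had 0.871 to 206 CPM in *Upf2*-null embryos (median 174) and 2.21 to 213 CPM in controls (median 156). *Eif2s3y* was near 0 in *Upf2*-null embryos 2 and 3 and in control embryos 2, 5 and 10, at 0.871 to 2.57 CPM, and at 107 to 213 CPM in the other 14 embryos. Its log2 fold change between genotypes was 0.16 (SE 0.81, 95% interval -1.52 to 1.84, edgeR adjusted p = 0.981). *Eif2s3x* had 39.5 to 74.8 CPM in *Upf2*-null embryos (median 48.8) and 41.2 to 85.6 CPM in controls (median 51.5). The 5 embryos with *Eif2s3y* near 0 were the 5 highest for *Eif2s3x*, at 67.6 to 85.6 CPM, and the other 14 had 39.5 to 59.2 CPM. The summed level of both genes was 70.1 to 87.8 CPM in those 5 embryos and 167 to 263 CPM in the other 14. Between genotypes the log2 fold change of *Eif2s3x* was -0.07 (SE 0.17, 95% interval -0.43 to 0.28, edgeR adjusted p = 0.948).

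The sex of the embryos is not given in the labels, so a Y-linked level was used in its place: the log2 summed CPM of *Ddx3y*, *Kdm5d* and *Uty*, which ran from 0.73 to 1.43 in the 5 embryos and from 7.08 to 8.15 in the others. Fitted beside genotype, this level was tested for every gene, and 0.198% of all genes passed an adjusted p of 0.1, with 2 of the 53 genes among them. Per unit of the Y-linked level, *Eif2s3y* was higher by 0.98 on the log2 scale (SE 0.04, edgeR adjusted p = 3.06e-13) and *Eif2s3x* changed by -0.09 (SE 0.02, edgeR adjusted p = 0.091). The level is made of Y-linked genes, so a rise of *Eif2s3y*, itself Y-linked, was given in advance and is no separate result. The genes that make up the level were not left out of the 0.198%. The Y-linked term was read after the values of *Eif2s3y* and *Eif2s3x* had been seen.

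**Figure D4:**
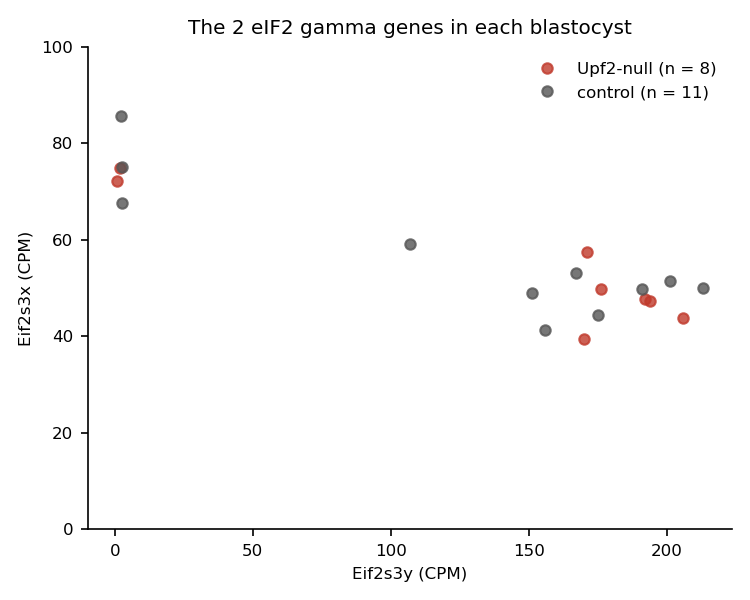
*Eif2s3y* (x axis) and *Eif2s3x* (y axis) in CPM in each *Upf2*-null (red, n = 8) and control (grey, n = 11) blastocyst. The 5 embryos with *Eif2s3y* under 3 CPM, of both genotypes, have *Eif2s3x* at 67.6 to 85.6 CPM, above the other 14 embryos.

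The other 8 genes of start codon scanning and the eIF2 cycle had log2 fold changes between -0.21 and 0.02. The lowest of them was *Eif5b*, the GTPase that joins the large ribosomal subunit (chr1:37998010-38055579). It ran from 162 to 253 CPM in *Upf2*-null embryos (median 214) and from 144 to 336 CPM in controls (median 239). Of the *Upf2*-null embryos, 7 of 8 were below the control median, and the *Upf2*-null range lay inside that of the controls. With all embryos its log2 fold change was -0.21 (SE 0.13, 95% interval -0.48 to 0.06, edgeR adjusted p = 0.579). *Eif1* and *Eif1ax*, which keep the scanning complex open, *Eif1a*, *Eif1b*, *Eif1ad*, *Eif2d* and *Eif5* made up the rest, and the intervals of all 8 lay within 1.5-fold.

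The eIF2B subunits split into a steady and a variable set. *Eif2b1*, the alpha subunit, which senses phosphorylated eIF2 (chr5:124570213-124579131), ran from 352 to 462 CPM in *Upf2*-null embryos (median 385) and from 274 to 470.4 CPM in controls (median 350.4). All 8 *Upf2*-null embryos were above the control median, and only control embryo 2 exceeded the highest of them. The log2 fold change was 0.13 (SE 0.08, 95% interval -0.05 to 0.30, edgeR adjusted p = 0.623). *Eif2b3*, the gamma subunit (chr4:117019402-117087306), ran from 244 to 362 CPM in *Upf2*-null embryos (median 308) and from 247 to 411 CPM in controls (median 324), with 7 of 8 *Upf2*-null embryos below the control median. Its log2 fold change was -0.05 (SE 0.09, edgeR adjusted p = 0.914).

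*Eif2b2*, the beta subunit (chr12:85219481-85226628), ran from 83.9 to 241 CPM in *Upf2*-null embryos (median 228) and from 96.3 to 301 CPM in controls (median 234). *Upf2*-null embryos 4, 5 and 7 had 107, 120 and 83.9 CPM and the other 5 had 220 to 241 CPM, while control embryo 6 had 96.3 CPM, control embryo 3 had 150 CPM and the other 9 had 222 to 301 CPM. Between genotypes the log2 fold change was -0.27 (SE 0.22, edgeR adjusted p = 0.736). *Eif2b4*, the delta subunit (chr5:31187558-31193430), ran from 169 to 343 CPM in *Upf2*-null embryos (median 300.1) and from 162 to 350.4 CPM in controls (median 290.5). *Upf2*-null embryos 4 and 7 and control embryo 6 were again lowest, at 169, 180 and 162 CPM. This corresponded to a log2 fold change of -0.05 (SE 0.14, edgeR adjusted p = 0.965). *Eif2b5*, the catalytic epsilon subunit (chr16:20498817-20509323), ran from 219 to 405 CPM in *Upf2*-null embryos (median 356) and from 209.9 to 510.3 CPM in controls (median 351), with the same 3 embryos lowest. edgeR fitted a log2 fold change of -0.13 (SE 0.14, edgeR adjusted p = 0.842).

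The eIF3 complex, the scaffold that holds the small subunit and the mRNA together, had the lowest median spread between embryos of the role groups. Of its 14 genes, 11 had a fold change below 0 and 3 above 0, with a median log2 fold change of -0.07 and a range from -0.19 to 0.18. The 95% interval lay within 1.5-fold for 12 of 14. The SD between embryos of a genotype, on log2(CPM + 0.5), was 0.10 for *Eif3l* and 0.12 for *Eif3h*, with a median of 0.14 over the 14 genes, against a median of 0.27 over all genes with at least 100 CPM. *Eif3f* (chr7:108934417-108942951) ran from 157 to 206 CPM in *Upf2*-null embryos (median 185) and from 158 to 233 CPM in controls (median 201), and the groups overlapped over most of their range. With all embryos its log2 fold change was -0.12 (SE 0.08, 95% interval -0.29 to 0.04, edgeR adjusted p = 0.593). *Eif3h* (chr15:51786558-51865523) ran from 186 to 225 CPM in *Upf2*-null embryos (median 207) and from 197 to 262 CPM in controls (median 214). Control embryos 2, 5 and 6 exceeded every *Upf2*-null embryo. As a log2 fold change, the difference was -0.10 (SE 0.07, edgeR adjusted p = 0.606). *Eif3b*, named after its values were seen, had the widest spread of the abundant subunits, with a within-genotype SD of 0.53 and 190 to 524 CPM in *Upf2*-null embryos against 182 to 651 CPM in controls.

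Among the 12 genes of the cap-binding group, 7 had a fold change below 0 and 5 above 0, with a median log2 fold change of -0.08. *Eif4e*, the cap-binding protein (chr3:138526179-138559696), ran from 270.0 to 359 CPM in *Upf2*-null embryos (median 302) and from 284 to 499 CPM in controls (median 313). Control embryos 2, 4, 5 and 6 were above every *Upf2*-null embryo, and the rest lay together. The log2 fold change was -0.16 (SE 0.10, 95% interval -0.38 to 0.06, edgeR adjusted p = 0.628). *Eif4e1b* (chr13:54783998-54788459) had counts in 5 of 8 *Upf2*-null embryos, 56 in all, and in 2 of 11 controls, 12 in all. It ran from 0 to 6.77 CPM in *Upf2*-null embryos (median 0.445) and from 0 to 2.57 CPM in controls (median 0), and *Upf2*-null embryo 7 held the highest value. The fitted log2 fold change was 2.30 (SE 1.32, 95% interval -0.45 to 5.05, edgeR adjusted p = 0.538). It was 1.14 without *Upf2*-null embryo 7 and 4.43 without control embryo 2, the extremes when single embryos were left out, and ran from 0.64 to 4.43 over all alternatives. The summed level of 8 oocyte markers in *Upf2*-null embryo 7 was 14.5 CPM, within the 0.531 to 32.7 CPM of *Upf2*-null embryos and the 3.93 to 81.2 CPM of controls. The scaffold *Eif4g1*, named after its values were seen, had the widest spread of the abundant genes apart from *Eif2s3y*, from 107 to 373 CPM in *Upf2*-null blastocysts and from 148 to 403 CPM in controls, with a log2 fold change of -0.32 (SE 0.23, edgeR adjusted p = 0.671). The helicase genes *Eif4a1* and *Eif4a2* and the non-canonical scaffold *Eif4g2* had log2 fold changes of -0.06, 0.09 and 0.04.

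Of the 4E-BPs, which block the binding of eIF4E to its scaffold unless mTORC1 phosphorylates them, *Eif4ebp1* was abundant and *Eif4ebp2* low. *Eif4ebp2* (chr10:61428491-61452661) ran from 2.76 to 11.7 CPM in *Upf2*-null embryos (median 6.39) and from 0 to 26.2 CPM in controls (median 18.5). All 8 *Upf2*-null embryos were below the control median, but control embryos 2, 4 and 5, at 2.83, 5.71 and 0 CPM, were as low, and the groups overlapped. Between genotypes the log2 fold change was -1.21 (SE 0.59, 95% interval -2.44 to 0.03, edgeR adjusted p = 0.418), the lowest p of the 53 genes. Without control embryo 5 the edgeR adjusted p was 0.22, and over all alternatives it ran from 0.22 to 1.0. The log2 fold change of *Eif4ebp2* ran from -1.53 to -0.525 over all alternatives. *Eif4ebp1* (chr8:27260329-27276674) ran from 244 to 324 CPM in *Upf2*-null embryos (median 284.5) and from 231 to 339.9 CPM in controls (median 261), and the *Upf2*-null range lay inside that of the controls. Its log2 fold change was 0.05 (SE 0.08, 95% interval -0.11 to 0.21, edgeR adjusted p = 0.903). The ratio of *Eif4ebp1* to *Eif4e* CPM within an embryo ran from 0.876 to 1.12 in *Upf2*-null embryos (median 0.903) and from 0.674 to 0.922 in controls (median 0.813), and all 8 *Upf2*-null embryos were above the control median. It was 1 of 6 such ratios, looked at after the values were known and not tested, for which 2 (*Eif1b* to *Eif1*) to 8 of the 8 *Upf2*-null embryos were above the control median. For *Eif2s2* to *Eif2s1*, the beta to the alpha subunit of eIF2, the ratio was 1.34 to 1.6 in *Upf2*-null embryos (median 1.45) and 1.31 to 1.65 in controls (median 1.43).

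*Eif5a*, the hypusine-bearing factor that relieves stalled ribosomes (chr11:69916714-69921958), ran from 398 to 516 CPM in *Upf2*-null embryos (median 423.5) and from 417 to 555 CPM in controls (median 468). Of 8 *Upf2*-null embryos, 7 were below the control median, with *Upf2*-null embryo 8 the exception at 516 CPM. As a log2 fold change, the difference was -0.11 (SE 0.06, 95% interval -0.24 to 0.02, edgeR adjusted p = 0.529). Its paralog *Eif5a2* ran from 0.193 to 9.06 CPM in *Upf2*-null blastocysts and from 0 to 31.4 CPM in controls, and *Eif6*, which keeps the ribosomal subunits apart, from 169 to 334 CPM in *Upf2*-null blastocysts and from 156 to 405 CPM in controls.

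Genes that act around these factors were taken from 5 lists, with 77 of 78 listed symbols tested. Of 16 genes of the *Atf4* branch, 1 was called higher, *Ddit3*, and none lower (over all genes 0.175% were called higher and 0.0175% lower). *Ddit3*, which encodes the transcription factor CHOP, ran from 50.7 to 87.0 CPM in *Upf2*-null embryos (median 60.4) and from 9.88 to 45.3 CPM in controls (median 28.0). The groups did not overlap, and the share of all genes without overlap is not given here. *Ddit3* rose by a log2 fold change of 1.34 (SE 0.23, edgeR adjusted p = 0.0251). *Atf4* ran from 221 to 295 CPM in *Upf2*-null embryos (median 264) and from 154 to 268 CPM in controls (median 197.5), with all 8 *Upf2*-null embryos above the control median. This corresponded to a log2 fold change of 0.43 (SE 0.10), with an adjusted p of 0.111 from edgeR, 0.0146 from DESeq2 and 0.0185 from voom. The study counts the mRNAs of both *Ddit3* and *Atf4* among the NMD targets of the blastocyst. Whether their levels reflect lost decay or the eIF2 kinases was not tested.

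Besides *Ddit3*, 5 of the 16 genes of the *Atf4* branch had an unadjusted edgeR p under 0.05 without passing the adjusted threshold. They were *Atf4*, *Nupr1* and *Atf3* above 0, and *Cebpg* and *Phgdh* below 0. Over all genes, 12.5% had an unadjusted edgeR p under 0.05. *Nupr1*, a stress-induced chromatin protein, averaged 56.1 ± 25.1 CPM in *Upf2*-null blastocysts and 19.7 ± 25.7 CPM in controls (SD, n = 8 and 11), with an adjusted p of 0.262 from edgeR, 0.181 from DESeq2 and 0.0232 from voom. *Atf3*, a stress transcription factor, averaged 5.00 ± 5.91 CPM in *Upf2*-null blastocysts and 0.358 ± 0.820 CPM in controls (edgeR adjusted p = 0.262). *Cebpg*, a partner of ATF4, averaged 63.7 ± 11.9 CPM in *Upf2*-null blastocysts and 88.4 ± 16.3 CPM in controls (adjusted p = 0.231 from edgeR and 0.0628 from DESeq2). *Phgdh*, which opens serine synthesis, averaged 195.8 ± 79.8 CPM in *Upf2*-null blastocysts and 287 ± 61.2 CPM in controls (edgeR adjusted p = 0.271). Of all 16 genes, 9 lay above 0 and 7 below, with a median log2 fold change of 0.24.

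In the list of eIF2alpha phosphatase and kinase regulators, 0 of 15 genes were called by edgeR, DESeq2 or voom, and 2 had an unadjusted edgeR p under 0.05, near the 12.5% of all genes. *Ppp1r15a* (GADD34), the stress-induced subunit that directs phosphatase 1 to eIF2alpha, ran from 29.6 to 148 CPM in *Upf2*-null embryos (median 85.0) and from 16.8 to 129.5 CPM in controls (median 82.6), a log2 fold change of 0.10 (SE 0.31, edgeR adjusted p = 0.965). *Ppp1r15b*, its constitutive counterpart, ran from 20.9 to 91.8 CPM in *Upf2*-null embryos (median 62.0) and from 47.3 to 72.8 CPM in controls (median 61.9), a log2 fold change of -0.0014 (SE 0.20, edgeR adjusted p = 0.999). *Impact*, an inhibitor of GCN2, averaged 144 ± 28.5 CPM in *Upf2*-null blastocysts and 100.1 ± 35.3 CPM in controls, with all 8 *Upf2*-null embryos above the control median (log2 fold change 0.52, SE 0.18, edgeR adjusted p = 0.262). *Ppp1cc*, a catalytic subunit of phosphatase 1, averaged 99.2 ± 9.76 CPM in *Upf2*-null blastocysts and 113.9 ± 9.94 CPM in controls (edgeR adjusted p = 0.32).

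Of 22 initiation partners without an *Eif* symbol, edgeR called 0 and voom 0, DESeq2 called 1 (1.03% of all genes), and 3 had an unadjusted edgeR p under 0.05, near the 12.5% of all genes. *Pabpc4*, a poly(A)-binding protein, ran from 114.5 to 162 CPM in *Upf2*-null embryos (median 124) and from 132 to 234 CPM in controls (median 173), with all 8 *Upf2*-null embryos below the control median. edgeR fitted a log2 fold change of -0.43 (SE 0.11), with an adjusted p of 0.14 from edgeR and 0.0243 from DESeq2. *Denr*, which with MCTS1 serves reinitiation, averaged 247 ± 18.8 CPM in *Upf2*-null blastocysts and 216 ± 18.8 CPM in controls (log2 fold change 0.19, SE 0.07, edgeR adjusted p = 0.262). *Cyfip2*, whose product is known to bind eIF4E, had 2 counts in all in *Upf2*-null embryos and 98 in controls, where values ran from 0 to 9.26 CPM (edgeR adjusted p = 0.255). In the mTORC1 list (11 genes) and in the elongation and termination list (13 genes) the count was 0 by edgeR, DESeq2 and voom, and 0 at an unadjusted edgeR p under 0.05. Such a p was found in 12.5% of all genes, and the 0 called is near the all-gene shares given above.

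The most variable initiation factors were lowest in the same few embryos. Among the 40 genes with at least 100 CPM other than *Eif2s3y*, the 10 with the widest spread were *Eif4g1*, *Eif2b2*, *Eif3b*, *Eif2ak1*, *Eif6*, *Eif4h*, *Eif2b4*, *Eif2b5*, *Eif4b* and *Eif4e2*. *Upf2*-null embryos 4 and 7 and control embryo 6 lay below their genotype's mean in all 10, and they were the 3 lowest of all 19 embryos, relative to their genotype's mean, in 7 of the 10. Over all 40 abundant genes, 18 were below the mean in all 3 of these embryos, which were singled out after their values were seen. The mRNAs of the 53 genes held 38.8% to 57.9% GC, and 20 of the 40 abundant genes held at least 50%. The median deviation of these 20 GC-rich genes was -0.28, -0.26 and -0.36 on the log2 scale in *Upf2*-null embryos 4 and 7 and control embryo 6, and that of the 20 GC-poor genes 0.20, 0.06 and 0.16. The same embryos had the lowest slopes of log2 CPM on GC content over 3608 other abundant genes, at -0.41, -0.34 and -0.28 per 10% of GC, and the other 16 embryos had -0.22 to 0.20. The slope averaged -0.03 ± 0.24 (SD, n = 8) in *Upf2*-null blastocysts and 0.02 ± 0.16 (SD, n = 11) in controls, with p = 0.539 by a two-sided exact permutation test. With this slope added to the edgeR model after the data were seen, 31 of the 53 genes were called for the slope, 16 higher and 15 lower where the slope was higher, against 23.0% of all genes. These shares were not matched for level: 41 of the 53 genes had at least 100 CPM, against 3668 of all 17137. The calls were 11 higher and 2 lower among the 20 GC-rich genes, 3 higher and 12 lower among the 20 GC-poor genes, and 10 higher among the 10 most variable genes. The SE of the genotype term was smaller in 48 of 53 genes, at 0.131 for *Eif2b2* with the slope and 0.216 without it. None of the 53 genes was called for genotype in this fit, against 120 of all 17137 genes, so the 0 is near this background. Of the 53 genes, 1 had an unadjusted p under 0.05.

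**Figure D5:**
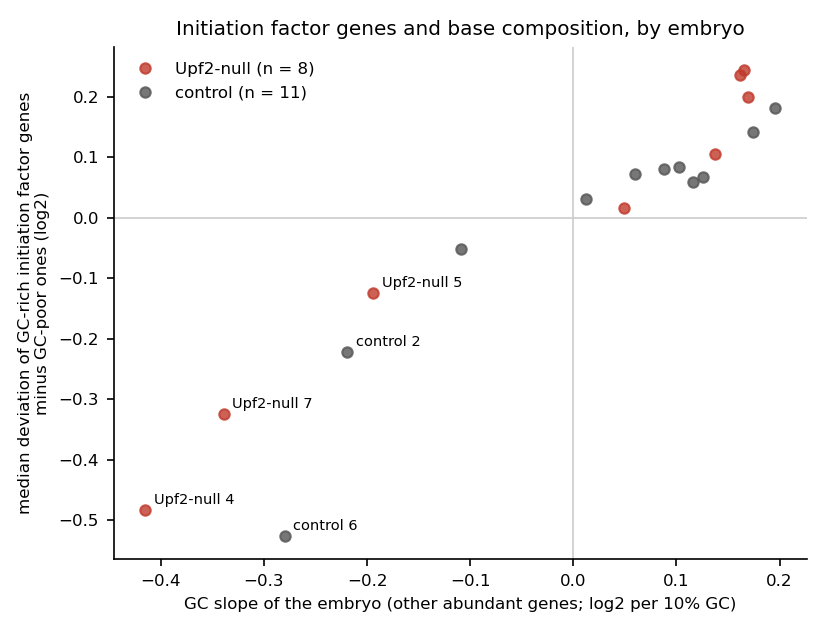
Median deviation from the genotype mean of 20 GC-rich initiation factor genes minus that of 20 GC-poor ones (y axis, log2) against the slope of log2 CPM on GC content over other abundant genes (x axis, per 10% of GC), for *Upf2*-null (red, n = 8) and control (grey, n = 11) blastocysts. *Upf2*-null embryos 4 and 7 and control embryo 6 lie lowest on the y axis, and both genotypes spread along the same band.

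Since UPF2 acts in NMD, the genes were also set out by annotation. Of the 53 genes, 11 have at least 1 GENCODE transcript of the NMD class, among them *Eif4a2*, *Eif5* and *Eif2d* with 3 each, and 7 have a snoRNA gene inside. The 11 genes had a median log2 fold change of -0.06 and the other 42 also -0.06, and over all genes tested the medians were -0.00028 with such a transcript and -0.03 without. The 7 genes with a snoRNA gene inside had a median log2 fold change of -0.06, against 0.02 for all 243 such genes. None of the 11 or the 7 was called by edgeR, DESeq2 or voom, or had an unadjusted edgeR p under 0.05. Of all 3803 genes with such a transcript, edgeR called 5 higher and 1 lower, DESeq2 called 40 and voom 31. At the unadjusted p, 199 of them were higher and 183 lower. Of the 243 genes with a snoRNA gene inside, edgeR called 1, DESeq2 7 and voom 7, with 12 higher and 12 lower at the unadjusted p. The counts of 0 are near these shares and are no result about the 11 or the 7. These are whole-gene counts, and the share of NMD isoforms within a gene was not analysed here. Exon bases were shared with a gene on the opposite strand by 14 of the 53 genes, the longest stretches in *Eif3d* with *Gm17638* and in *Eif5b* with *Rev1*, and since the reads were mapped without strand, those of such pairs cannot be told apart.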

How the data were processed

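Single blastocysts (8 *Upf2*-null, 11 control) were sequenced as 1 library each, from SMARTer v4 cDNA with Nextera XT on an Illumina HiSeq. Per the labels and the study's methods, the authors used STAR 2.5.2a for alignment (GRCm38), SAMtools to drop PCR duplicates, and featureCounts for the deposited counts, which are raw and given per Ensembl gene. The deposited scaled expression table holds signal values, each the count times 1 factor per embryo; 100% of values came out whole within 0.01. The deposited transcript models were not used here, and 0 columns of values belonged to no sample.

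Genes that reached 10 counts in any embryo entered edgeR 4.0.16 (TMM, robust quasi-likelihood, no covariate, Benjamini-Hochberg over all 17137 genes, threshold 0.1). limma 3.58.1 and DESeq2 1.42.0 gave alternatives. Scripts were tested on simulated data. Symbols and positions came from GENCODE M21, promoters from RefSeq. The genes and lists were chosen with earlier results of these data known. Full values are given for called genes, the 10 lowest p, the eIF2 kinases, eIF2 with *Eif2a*, eIF2B, *Eif4e* and the 4E-BPs. Listed pathway genes are named if called or at an unadjusted p under 0.05, with *Atf4*, *Ddit3*, *Ppp1r15a* and *Ppp1r15b*. Other genes were named after their values were seen. Each embryo is a separate animal, litters are not given, and depth was 4056072 to 5993745 counts per embryo. Any 2 embryos of a genotype differed by a chi-square of at least 10.5 per gene, where counting noise gives about 1. Alternatives covered other tools, normalizations, filters, a threshold of 0.05, a Y-linked covariate, the replicate number as a block, the scaled table with 1 or 0.1 added before log2, and each embryo or named sets of embryos left out. The recovered reads, the 16 numbered embryos without a block, the GC slope and leaving out 3 embryos were added after seeing the data. R 4.3.3, Python 3.11.15, numpy 2.4.6, pandas 2.3.3 and matplotlib 3.10.9 were used.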

Additional observations from a re-analysis of the deposited data

Results flagged for a closer look

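In the 53 genes, 3 *Upf2*-null values stood far from the other embryos of the genotype, by the gap to the next value relative to the range of the 8 embryos (Dixon's 95% criterion). By chance about 1 in 20 groups is marked in this way. *Eif4e1b* had 6.77 CPM in *Upf2*-null embryo 7, and the next embryo had 1.97 CPM (gap over range 0.709). *Eif3l*, an eIF3 subunit, had 456 CPM in *Upf2*-null embryo 4, and the next embryo had 408 CPM (gap over range 0.684). *Eif3g*, the eIF3 subunit that binds RNA, had 328 CPM in *Upf2*-null embryo 8, and the next embryo had 294 CPM (gap over range 0.577). The group of 11 controls was not examined this way.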

How the results depend on the processing

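Under all 37 alternatives 0 of the 53 genes were called higher and 0 lower, with 0 to 5 at an unadjusted p under 0.05 and a lowest adjusted p of 0.22. Calls over all genes numbered from 0 with the replicate block to 176 by DESeq2 (1.03%). The 0 of 53 is near this background and is no result about these genes. Their median log2 fold change ran from -0.08 to -0.02, and 28 to 39 lay below 0. All-gene medians ran from -0.04 to 0.01. On reads recovered from the scaled table, edgeR called 33 of all genes. Pathway genes called higher numbered 1 in the reported fit (*Ddit3*), 2 by DESeq2, 3 by voom, 2 with the 16 numbered embryos without a block, 2 with the GC slope, and 1 to 2 leaving out single embryos (2 without *Upf2*-null embryo 3 or control embryos 6 or 11). Those called lower numbered 2 by DESeq2 (*Cebpg*, *Pabpc4*), 1 with the GC slope and 0 leaving out single embryos. With the replicate block 0 of all genes were called, and so 0 pathway genes and 0 of the 53 genes. *Ddit3* had an edgeR adjusted p of 0.492 in that fit (adjusted p 1.62e-05 to 0.492 over all alternatives). Embryos that share a number did not deviate together (8 pairs, r from -0.14 to 0.07, 0 closest to its own number), so the numbers do not pair them.

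Of 790 fold changes of 22 named genes under the alternatives, 767 kept their direction and 23, in 6 genes, turned it, all near 0. By voom the log2 fold change was -0.025 for *Eif2ak1*, 0.065 for *Eif2s1* and -0.078 for *Eif2s3y*. With the GC slope it was 0.00112 for *Eif2b4* and -0.000625 for *Eif2s2*. Without *Upf2*-null embryos 4 and 7 and control embryo 6 it was 0.053 for *Eif2b4* and -0.0151 for *Eif2a*. With upper-quartile factors and with library totals alone it was 0.00299 and 0.0217 for *Eif2s1* and 0.0251 and 0.034 for *Ppp1r15b*. Without control embryos 2 and 4 it was 0.031 for *Eif2s1*, -0.0188 for *Eif2s3y* and 0.0157 for *Ppp1r15b*. Without *Upf2*-null embryo 2 and control embryo 5 it was 0.0309 for *Eif2s1* and 0.113 for *Ppp1r15b*. *Eif2s2* had -0.0445 with the replicate block and -0.0509 with the 16 numbered embryos without it, *Eif2s3y* -0.137 with the Y-linked covariate, and *Ppp1r15b* 0.00213 with edgeR's own low-count filter. Leaving out single embryos, the ranges were -0.112 to 0.0259 for *Eif2b4*, -0.00618 to 0.0969 for *Eif2a*, -0.0497 to 0.0317 for *Eif2s1*, -0.00311 to 0.0622 for *Eif2s2*, -0.0539 to 0.231 for *Ppp1r15a* and -0.122 to 0.127 for *Ppp1r15b*. The causes were not tested. Depth limits the genes under a few CPM, above all *Eif2ak2* and *Eif4e1b*.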
